A study of Mus musculus with 4 samples.

Results

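The genes described here are those named for the constitutive proteasome, measured in mouse liver. They cover the subunits of the proteolytic core, the regulatory particle, the other caps and the chaperones that assemble them. Genes were taken by symbol, as every name that starts with Psma, Psmb, Psmc, Psmd, Psme, Psmf or Psmg followed by a digit, except the interferon-inducible Psmb8, Psmb9, Psmb10, Psme1 and Psme2. GENCODE M21 annotates 45 such genes. Of these, 11 were listed as changed in at least 1 of the 4 deposited comparisons, among 3113 genes listed in the whole series, and 34 were listed in none. The 11 are 24.4% of the family. Of the 21923 annotated protein-coding genes, which include genes the liver does not express, 13.6% were listed in at least 1 comparison. Psmc3ip and Psme2b belong to the 45 by name only. Neither was listed.

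The libraries came from livers of male mice aged 16 to 20 weeks on the C57BL/6 background. Wild-type (WT) mice were compared with CypD-/- mice, in which Ppif, the gene of the mitochondrial matrix isomerase cyclophilin D, is disrupted. LPS, the endotoxin of Gram-negative bacteria, was given into the peritoneum at 40 mg per kg, controls received phosphate-buffered saline, and livers were taken 24 h later. RNA of 3 mice was pooled into 1 library for each of the 4 groups: WT control, WT LPS, CypD-/- control and CypD-/- LPS. No group had a second library, so no value below carries an error between mice, and each q-value compares a pair of libraries, not the conditions.

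The deposited tables give a fold change and a q-value (a p-value corrected for the number of genes tested) for genes past 1.5-fold with a q under 0.05. They give no level or read count per library, so depth is unknown and levels in single libraries cannot be shown. A gene outside a table has no value there. It may have changed less, passed only 1 of the thresholds or been too weakly covered. "Rose" and "fell" below are used only of listed genes.

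The proteasome degrades proteins tagged with ubiquitin. Its core is a barrel of stacked rings, in which the outer alpha rings gate the entrance and the inner beta rings hold the active sites. The regulatory particle binds ubiquitin chains, unfolds the substrate with a ring of ATPases and passes it into the barrel. Inflammatory signals replace the catalytic beta subunits with the immunoproteasome forms, which favour the production of peptides for antigen presentation. When the proteasome is impaired, the transcription factor Nfe2l1 is known to raise its subunit genes together.

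The libraries were checked first. Ppif was 2.72-fold lower in the CypD-/- control library than in the WT control library (q = 0.00254) and was not listed between the LPS libraries. From its read alignment, the paper reports a deletion of Ppif exons in CypD-/- mice. Ppif was also 2.20-fold lower in the WT LPS library than in the WT control (q = 0.00615). The WT LPS library stood apart in Y-linked transcripts, although all mice were described as male: Ddx3y was 14.4-fold lower than in WT control and 14.3-fold higher in CypD-/- LPS, and Eif2s3y was 24.9-fold lower and 29.2-fold higher in the same comparisons. With 1 library per group it cannot be left out. The comparison of CypD-/- LPS with CypD-/- control and that of the controls do not use it. Eif2s3y was nonetheless 1.98-fold higher in CypD-/- control than in WT control (q = 0.0207). As background for cell type markers, 12.5% of annotated coding genes were listed after LPS in WT and 6.39% in CypD-/- liver. Between the LPS libraries the share was 4.18%. After LPS, 3 of 12 neutrophil markers were higher in WT and 4 of 12 in CypD-/- liver. Of 11 Kupffer cell and macrophage markers, 8 were lower in WT, while 1 was higher and 1 lower in CypD-/- liver. Of 8 hepatocyte markers, 5 were lower in each genotype and 4 were higher in CypD-/- LPS than in WT LPS. Of 8 endothelial markers, 2 were higher and 3 lower in WT, and 1 was higher and 1 lower in CypD-/- liver. In WT, 1 of 8 stellate cell and 1 of 6 cholangiocyte markers were higher, and none was listed in CypD-/- liver. Between the LPS libraries, 1 Kupffer cell and macrophage marker was higher in CypD-/- LPS, and 1 endothelial and 1 stellate cell marker were lower. No lymphocyte marker of 10 was listed. In whole liver, fewer cells of a type and less RNA per cell cannot be told apart, and the part of these shifts in the proteasome values was not tested.

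The promoters of the 5 genes that rose after LPS in CypD-/- liver are shown with that of Psme4, which fell in both genotypes. They were picked from these calls, and a link between a motif and a call was not tested. The promoters of Psmg2, Psmd5, Psmb6 and Psma5, listed after LPS in WT liver only, are not shown. The sequences are from RefSeq (GRCm38.p6), 5′ to 3′ on the strand of the gene, up to 250 bases before the start site and cut where the GENCODE gene begins before that site. The Psma7 sequence ends short of the GENCODE gene. Capitals mark CCAAT, the box bound by NF-Y, read on either strand (ATTGG is its reverse complement).
Psma2 (chr13:14612992-14613239, plus strand): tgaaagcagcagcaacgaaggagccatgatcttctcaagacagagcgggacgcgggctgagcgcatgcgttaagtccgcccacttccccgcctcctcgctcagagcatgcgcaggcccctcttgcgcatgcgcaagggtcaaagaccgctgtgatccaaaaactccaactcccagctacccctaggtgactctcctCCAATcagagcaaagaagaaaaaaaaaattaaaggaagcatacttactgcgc
Psma6 (chr12:55383972-55384221, plus strand): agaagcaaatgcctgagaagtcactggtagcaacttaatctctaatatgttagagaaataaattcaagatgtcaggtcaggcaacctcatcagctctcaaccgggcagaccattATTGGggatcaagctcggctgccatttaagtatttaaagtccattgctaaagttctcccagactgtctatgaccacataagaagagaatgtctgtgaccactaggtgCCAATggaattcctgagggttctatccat
Psma7 (chr2:180042465-180042714, minus strand): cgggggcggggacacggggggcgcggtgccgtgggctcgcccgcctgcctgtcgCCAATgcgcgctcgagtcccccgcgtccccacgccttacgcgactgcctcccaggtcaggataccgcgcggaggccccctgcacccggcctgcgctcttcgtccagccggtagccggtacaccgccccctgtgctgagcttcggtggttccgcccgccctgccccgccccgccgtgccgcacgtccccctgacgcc
Psmc1 (chr12:100109952-100110153, plus strand): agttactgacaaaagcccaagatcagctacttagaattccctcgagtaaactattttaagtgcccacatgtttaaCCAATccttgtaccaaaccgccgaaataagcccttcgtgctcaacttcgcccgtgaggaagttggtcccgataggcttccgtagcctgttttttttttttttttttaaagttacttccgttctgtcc
Psmd8 (chr7:29180702-29180923, minus strand): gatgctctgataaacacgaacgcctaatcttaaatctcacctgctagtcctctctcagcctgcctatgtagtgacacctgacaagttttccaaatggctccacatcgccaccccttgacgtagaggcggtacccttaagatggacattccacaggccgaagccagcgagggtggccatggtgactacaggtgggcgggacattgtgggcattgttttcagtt
Psme4 (chr11:30771525-30771725, plus strand): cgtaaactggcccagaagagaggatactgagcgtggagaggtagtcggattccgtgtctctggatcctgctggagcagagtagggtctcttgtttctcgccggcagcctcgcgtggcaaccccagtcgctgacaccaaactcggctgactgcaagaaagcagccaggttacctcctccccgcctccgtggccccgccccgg
In these sequences CCAAT stood in Psma2, Psma6, Psma7 and Psmc1, and not in Psmd8 or Psme4. In the 250 bases before the start, 33.8% of all promoters hold it. Psma6 held it on both strands. The Psma6 promoter shown is from a pair, and the other promoter of that pair held no CCAAT.

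RefSeq promoters, each of 250 bases before and 50 after the start, matched 10 of the 11 genes and numbered 11, since Psma6 has a pair. CCAAT, searched on both strands, occurred in 5 of the 11 (Psma2, Psma6, Psma7, Psmb3 and Psmc1), against 37.4% of all 32851 promoters. TGACNNNGC, the core of the antioxidant response element that Nfe2l1 and Nfe2l2 bind, occurred in 2 of the 11, against 12.4% of all. These were Psmb6 and Psme4, and in Psme4 the match ran past the start site. In the 250 bases before the start the motif stood in 1 of the 11 (9.09%), against 10.2% of all. The stricter TGACTCAGC (0.454% of all), the E-box CACGTG (7.15%) and the heat shock element in its strict spaced form (0.603%) occurred in none of the 11. TGACTCAGC is also a match to TGACNNNGC. A match is a string of letters, not a bound site.

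After LPS in WT liver, 6 of the 45 genes were listed: Psmd8 and Psma5 rose, and Psmg2, Psmd5, Psmb6 and Psme4 fell. This was 13.3% of the family. Of the annotated protein-coding genes, 12.5% were listed, so the share of the family was near the background. Among the 2844 genes of that comparison, 32.0% were higher, against 2 of the 6 proteasome genes. The 6 folds had a median of 2.02, against 3.75 in the table, and 3 of the 6 were under 2-fold, against 11.6% of the table. At a q under 0.01, 3 were left: Psmd8 and Psma5, which rose, and Psmb6, which fell.

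After LPS in CypD-/- liver, 6 of the 45 were again listed, and 5 of them rose: Psmc1, Psmd8, Psma7, Psma6 and Psma2. Psme4 fell. The 13.3% of the family stood against 6.39% of annotated coding genes. The 5 of 6 that were higher stood against 31.0% of the 1446 genes in the table. The median signed log2 fold of the 6 was 0.67, while that of the whole table was -0.9996. The changes were small: the median fold was 1.67 against 2.54 in the table, and 5 of the 6 were under 2-fold, against 24.1% of the table. At a threshold of 2-fold, Psme4 alone was left and the median turned to -1.01. No test of the family was made, since members were chosen with results known and there are no replicates.

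**Figure D1:**
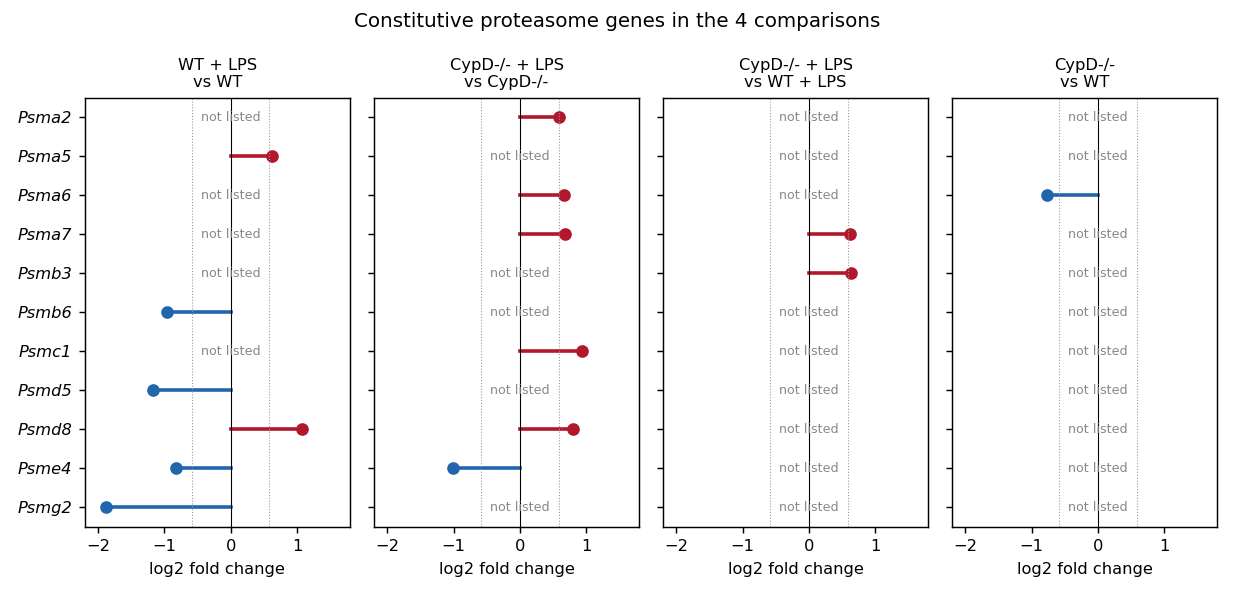
Signed log2 fold change (x axis) of the 11 listed proteasome genes (rows) in the 4 comparisons (panels), with 1 pooled library per group, so points have no error bars; dotted lines mark 1.5-fold. Red points are higher and blue points lower in the first group named. In the CypD-/- LPS panel 5 of 6 points lie right of 0, and in the WT LPS panel 2 of 6 do.

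The alpha ring, which gates the core, had 4 of 8 genes listed in at least 1 comparison, beside 13.6% of coding genes. Psma5 (chr3:108256926-108279974, 9 exons) rose 1.54-fold after LPS in WT liver (q = 0.00304) and was listed in no other comparison. Only 0.668% of the table had a smaller fold. Psma2 (chr13:14613240-14674236, 8 exons) rose 1.51-fold after LPS in CypD-/- liver (q = 0.0176), just past the threshold, with 0.207% of the table below it. Both genes were thus among the smallest changes that the tables could hold.

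Psma6 (chr12:55384222-55418454, 7 exons) was the only member listed between the untreated genotypes. It was 1.70-fold lower in CypD-/- control than in WT control (q = 0.00334), which put 1 of 45 genes, or 2.22%, in a table that held 1.06% of coding genes and in which 35.5% were higher. In the same comparison of controls the Kupffer cell markers Marco and Cd5l were 7.44-fold and 1.72-fold lower and the hepatocyte marker Ttr was 1.53-fold lower, and their part in the Psma6 value was not tested. After LPS in CypD-/- liver Psma6 rose 1.59-fold (q = 0.00966). Both comparisons use the CypD-/- control library. Multiplying the folds puts Psma6 at 0.589 of WT control in CypD-/- control and at 0.934 in CypD-/- LPS, the latter near the untreated WT value. Psma6 was not listed between the LPS libraries.

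Psma7 (chr2:180036374-180042433 on the minus strand, 7 exons) rose 1.60-fold after LPS in CypD-/- liver (q = 0.00281) and was 1.54-fold higher in CypD-/- LPS than in WT LPS (q = 0.0105). Both comparisons use the CypD-/- LPS library. Dividing the folds puts CypD-/- control at 0.964 of WT LPS, so for Psma7 these 2 libraries were close and CypD-/- LPS lay above both. The other alpha genes Psma1, Psma3, Psma4 and Psma8 had no listed value. Psma8 is known as the testis form.

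The beta ring holds the active sites and had 2 of 8 genes listed in at least 1 comparison, beside 13.6% of coding genes. Psmb6 (chr11:70525367-70527858, 6 exons), the caspase-like catalytic subunit, fell 1.94-fold after LPS in WT liver (q = 0.000945). The other constitutive catalytic genes, Psmb5 and Psmb7, were listed in no comparison. Psmb11, which counts among the 8, was not listed either. Psmb3 (chr11:97703399-97713500, 6 exons), a subunit without an active site, was 1.54-fold higher in CypD-/- LPS than in WT LPS (q = 8.17e-05). It was listed after LPS in neither genotype.

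Between the LPS libraries, Psma7 and Psmb3 were the 2 genes of 45 that were listed. That share of 4.44% was near the 4.18% of coding genes. Both were higher, as were 61.8% of the 963 genes in the table. Their median fold was 1.54 against 2.42 in the table, and no proteasome gene was listed as lower in CypD-/- LPS. These values of Psma7 and Psmb3 use the WT LPS library, which stood apart in Y-linked transcripts.

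Of the 5 immunoproteasome genes left out of the family, 2 were listed in at least 1 comparison, beside 13.6% of coding genes. Psmb8, which replaces Psmb5, rose after LPS, with folds of 3.01 in WT (q = 0.00303) and 4.27 in CypD-/- liver (q = 0.04). Psmb10, which replaces Psmb7, did so as well, with folds of 2.77 in WT (q = 4.42e-14) and 3.64 in CypD-/- liver, where the q-value is given as 0. Psmb9, which replaces Psmb6, was not listed, nor were Psme1 and Psme2. Each rise of Psmb8 and Psmb10 was larger than that of any constitutive gene in the same comparison, where the highest was 2.11-fold in WT and 1.91-fold in CypD-/- liver. No immunoproteasome gene was listed between genotypes.

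**Figure D2:**
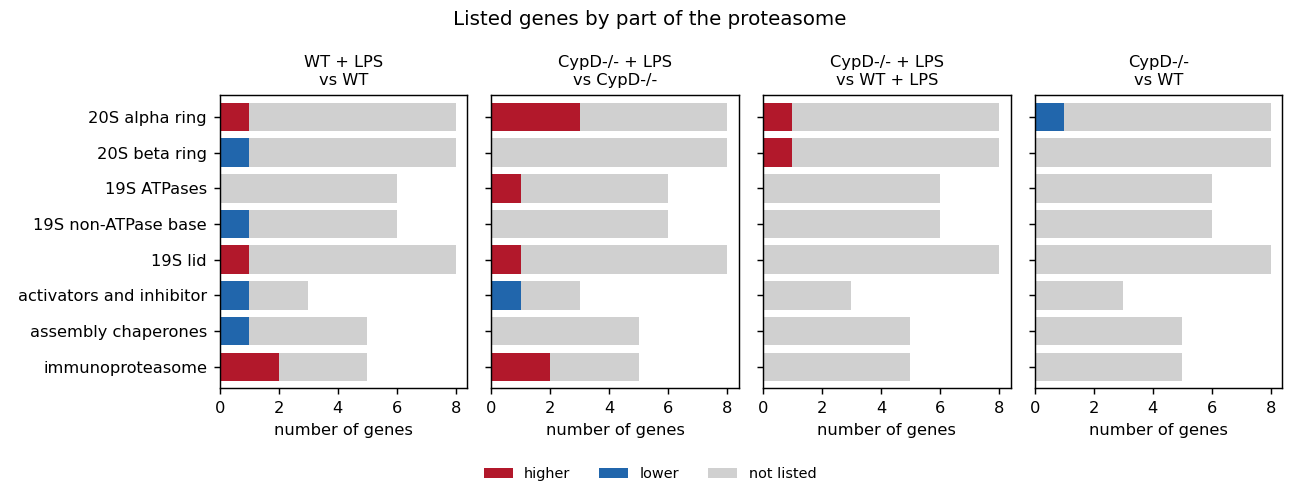
Number of genes (x axis) in each part of the proteasome (rows) listed as higher (red), lower (blue) or not listed (grey) in the 4 comparisons; assembly chaperones include Pomp. Most of each bar is grey: the fullest row of the constitutive parts is the alpha ring after LPS in CypD-/- liver, with 3 of 8 genes higher.

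In the regulatory particle, Psmc1 (chr12:100110154-100123405, 11 exons) was the only ATPase of 6 that was listed. It rose 1.91-fold after LPS in CypD-/- liver (q = 2.42e-05), the largest rise among the constitutive genes in that comparison. The remaining ATPases, Psmc2 to Psmc6, had no listed value anywhere.

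Psmd8 (chr7:29174188-29180701 on the minus strand, 7 exons), a lid subunit known in yeast to join the lid last, was 1 of the 2 members listed after LPS in both genotypes. Its rise was 2.11-fold in WT liver (q = 1.03e-10), and in CypD-/- liver it was 1.74-fold (q = 3.4e-05). In WT its q-value was the smallest of the family: 30.9% of the table had a smaller one. No other lid gene of 8 was listed, including Psmd14, the deubiquitinase.

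Psmd5 (chr2:34849734-34874968 on the minus strand, 10 exons), a chaperone of the ATPase ring known to hold it apart from the core, fell 2.25-fold after LPS in WT liver (q = 0.0359). Its q-value was near the threshold, and 94.9% of the table had a smaller one. The other non-ATPase genes of the base, among them the ubiquitin receptor gene Psmd4, were not listed.

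Psme4 (chr11:30771726-30880361, 47 exons) encodes PA200, a cap of the core that works without ATP or ubiquitin and is known for histone degradation. It fell after LPS in both genotypes. The fold was 1.78 in WT (q = 0.0163) and 2.01 in CypD-/- liver (q = 0.000538), and Psme4 was the only member to fall in CypD-/- liver. Psme3, another cap, and Psmf1, an inhibitor, were not listed.

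Psmg2 (7 exons), whose product pairs with that of Psmg1 to start assembly of the alpha ring, had the largest fold of the family. It fell 3.67-fold after LPS in WT liver. Its q-value of 0.0409 was near the threshold, and 96.6% of the table had a smaller one. Psmg1, Psmg3, Psmg4 and Pomp, the other assembly chaperones, had no listed value.

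**Figure D3:**
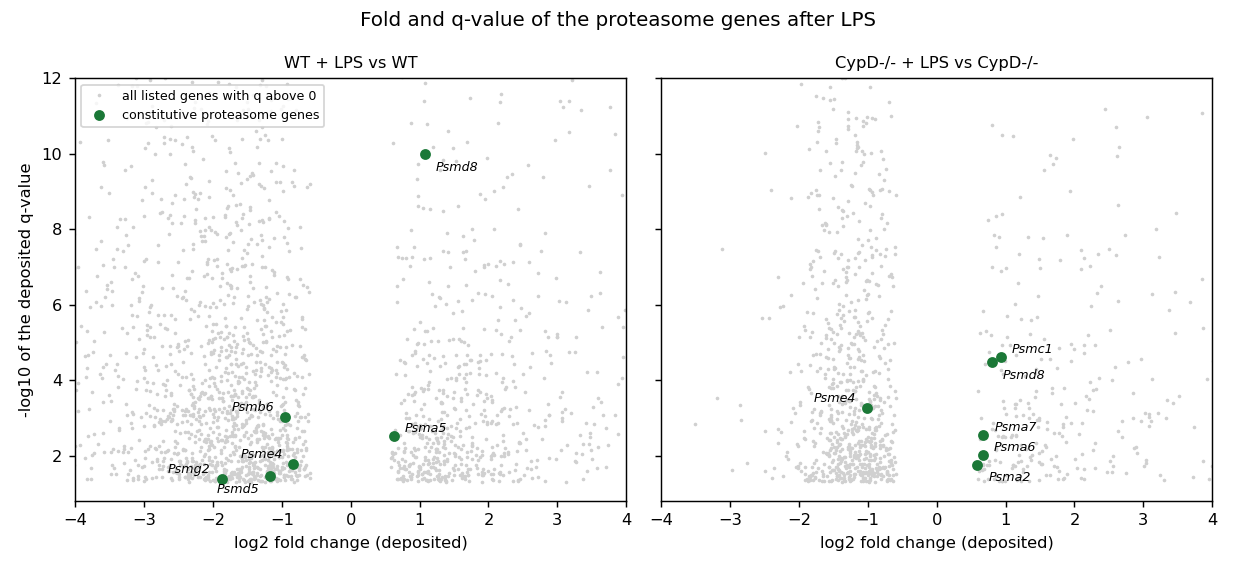
Deposited log2 fold change (x axis) against -log10 of the q-value (y axis) after LPS in WT (left) and CypD-/- liver (right), for all listed genes within the plotted range (grey) and the proteasome genes (green). Most proteasome genes lie near the inner edges of the fold range, Psmg2 lies farther out at -1.87, and Psmd8 in WT stands out by its q-value of 1.03e-10.

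The LPS comparisons of the genotypes share no library with each other. Of the 6 proteasome genes listed in each, 2 were in both, which is 33.3% of either list. Among all genes, 1259 were in both, 44.3% of the WT list and 87.1% of the CypD-/- list. The 4 other genes that rose in CypD-/- liver (Psmc1, Psma7, Psma6 and Psma2) had no listed value in WT, and the 4 other WT genes had none in CypD-/- liver. No member was listed in opposite directions. Being listed in 1 genotype and not the other does not show a difference, which for these 8 genes could not be tested.

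For the shared genes the LPS fold was set side by side. In CypD-/- liver the fold of Psmd8 was 0.824 of that in WT (log2 -0.28) and that of Psme4 was 1.13 (log2 0.18). Across the 1241 genes listed in the same direction in both, the median log2 ratio was -0.67 and 84.6% had a smaller fold in CypD-/- liver. The corresponding ratios for Psmb8 and Psmb10 were 1.42 and 1.32.

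Reads from near-identical copies could enter some of these values, since the authors' mapping kept reads matching at up to 10 places with 80% similarity. At 95% identity or more over at least 75 bases, transcripts of other genes covered 76.5% of the Psma5 transcript (Gm12989 and Gm8394), 80.7% of Psmb3 (AC114990.1, Gm4950 and Gm5356) and 82.3% of Psmc1 (AC110212.1). None of these copies was listed itself. The values of Psma5, Psmb3 and Psmc1 are therefore uncertain. No other member was covered at that identity. At 80% identity over at least 75 bases, the cover was 89.8% for Psmb6, 71.1% for Psma6 and 38.1% for Psma2. The mapping allowed this similarity over as little as 50% of a read, so shorter matches that it could use are not counted. Reads from other genes could enter the values of Psmb6 and Psma6 as well. The cover was 19.8% for Psmd5, 17.5% for Psmd8, 10.1% for Psma7, and 0 at that length for Psme4 and Psmg2. For Psma2 and Psmd5 the matches were to 1096 and 1123 other genes. Reads matching at more than 10 places were not kept, so how many such reads enter these 2 values is unknown. Psma2 also overlaps AW209491 on the same strand.

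**Figure D4:**
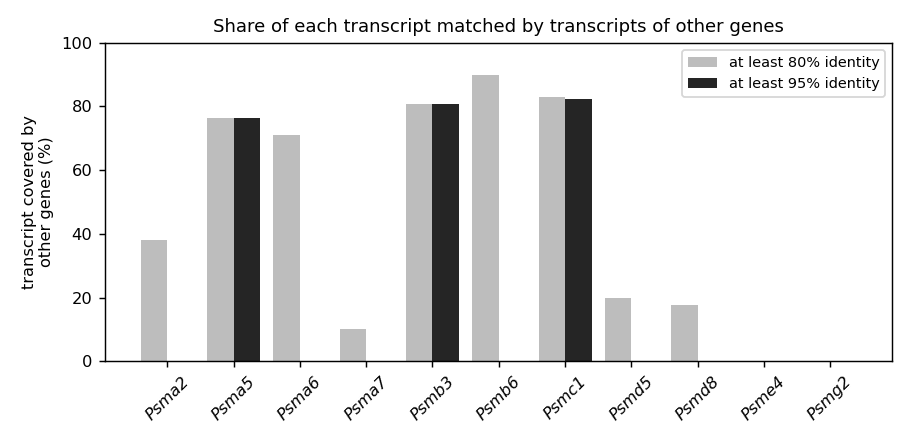
Percent of each principal transcript (y axis) covered by transcripts of other genes at 80% identity or more (grey) and at 95% or more (black), for the 11 listed genes. Only matches of at least 75 bases are counted. Black bars stand over Psma5, Psmb3 and Psmc1 only, and Psme4 and Psmg2 have no bar at either identity.

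The genes that act with the proteasome were taken from lists. Of coding genes, 13.6% were listed in at least 1 comparison. Of 11 partners of the particle, 2 were listed, a share near that background, both after LPS in WT liver only: Txnl1, a thioredoxin-like protein bound to the regulatory particle, rose 1.61-fold, and Zfand2a, an arsenite-inducible protein that binds the regulatory particle, rose 4.33-fold. Of 10 regulators of proteasome genes, 3 were listed. Nfe2l2, the antioxidant response factor related to Nfe2l1, fell 4.06-fold in WT. Nfe2l1 itself was not listed in any comparison. Ddi2, the protease known to release Nfe2l1 from the endoplasmic reticulum, rose 2.28-fold in WT and was 2.16-fold lower in CypD-/- LPS than in WT LPS. Syvn1, the ubiquitin ligase of endoplasmic reticulum degradation, rose 4.47-fold in WT and was 2.77-fold lower in CypD-/- LPS. For Ddi2 and Syvn1 both comparisons use the WT LPS library, which stood apart in Y-linked transcripts. On the scale where WT control is 1, CypD-/- LPS came to 1.06 for Ddi2 and 1.61 for Syvn1.

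Substrates reach the proteasome through ubiquitin, shuttle proteins and the unfoldase p97. Ubqln1, a shuttle factor, fell 1.68-fold in WT, and Vcp, the gene of p97 itself, was not listed. Ubb, a stress-inducible polyubiquitin gene, rose in both genotypes, with folds of 2.58 in WT and 2.98 in CypD-/- liver. Rps27a, which encodes ubiquitin fused to a ribosomal protein, was 1.51-fold lower in CypD-/- LPS than in WT LPS. Uba7, which activates the ubiquitin-like Isg15, rose 3.20-fold in WT. The ubiquitin-activating genes Uba1 and Uba6 were not listed.

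**Figure D5:**
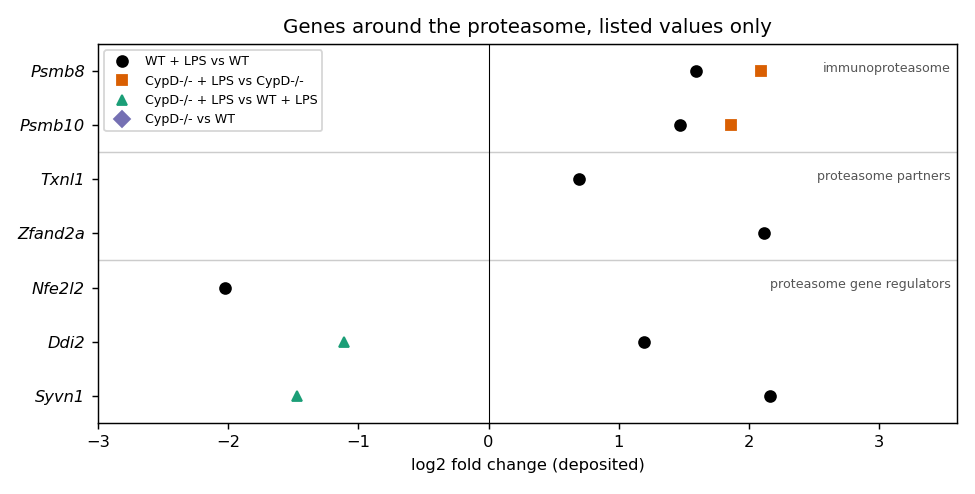
Deposited log2 fold change (x axis) of the listed genes of 3 gene lists (rows, grouped by list) in the 4 comparisons (symbols); a missing symbol means that the gene was not listed there. Psmb8 and Psmb10 lie right of 0 in both LPS comparisons, and Ddi2 and Syvn1 lie right of 0 in WT and left of 0 between the LPS libraries. The comparisons shown for Ddi2 and Syvn1 both use the WT LPS library.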

How the data were processed

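Liver RNA from 4 groups was sequenced on the SOLiD 5500xl system, 1 pooled library per group. The authors depleted ribosomal RNA, used reads of 75 nt after trimming, mapped them by strand to GRCm38 in CLC Genomics Workbench 6.0.1 (at least 50% of the read at 80% similarity, up to 10 places), compared pairs of libraries with Kal's test and kept genes past 1.5-fold and a false discovery rate of 0.05. The deposited fold change, a signed score, and the deposited q-value of each of these comparisons are the only values used here. The authors' folds were converted to log2, counted and multiplied across comparisons. No test was run. Members and lists were chosen with earlier results of these data known. Named genes were all listed members and listed genes of the lists given. Some genes of the ubiquitin and shuttle factor lists are not reported here, so those lists have no counts. Positions are from GENCODE M21, copies from BLAST 2.17.0 on principal transcripts, and promoters from RefSeq. Counting steps were tested on simulated data. Stricter fold and q thresholds, other family definitions and other motifs were tried.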

Additional observations from a re-analysis of the deposited data

How the results depend on the processing

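No replicate could be left out, since each group has 1 library, and no paired analysis was possible because no group has replicates. Asking for 2-fold lowered the count of listed proteasome genes after LPS from 6 to 3 in WT and from 6 to 1 in CypD-/- liver, from 2 to 0 between the LPS libraries and from 1 to 0 between controls. At that threshold the median log2 fold went from -0.89 to -1.17 in WT and turned from 0.67 to -1.01 in CypD-/- liver, where only Psme4 was left, and the genotype comparisons had no gene left for a median. A q under 0.01 gave 3 in WT, 2 higher and 1 lower, where the full count was 2 higher and 4 lower. In CypD-/- liver it gave 5, of which 4 were higher and 1 lower, and between the LPS libraries 1. A q under 0.001 gave 2 in WT, 3 in CypD-/- liver, 1 between the LPS libraries and 0 between controls. Leaving out Psma5, Psmb3 and Psmc1, an alternative chosen after seeing the data, gave 1 between the LPS libraries. The median log2 ratio of LPS folds went from -0.05 to -0.28 with q under 0.01 in both, which left Psmd8. It could not be taken through the comparison of LPS libraries, which lists neither gene. TGACTCAGC in place of TGACNNNGC took the promoter share from 18.2% to 0, and the 250 bases before the start alone took it to 9.09%. In all, 15 of 30 alternatives were scored as within the limits set, 14 as moved and 1 as turned in direction. The 15 include the promoter share of 9.09%, though its change from 18.2% is past the 1.5-fold limit set for gene counts. Depth is unknown, and unlisted genes limit every count.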

Other observations

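A list of 8 genes of proteins that the proteasome degrades, with the antizyme genes, had 6 in at least 1 table, where 13.6% of annotated coding genes were. The NF-kappaB inhibitor genes Nfkbia and Nfkbib rose after LPS: the folds of Nfkbia were 3.81 in WT and 3.34 in CypD-/- liver, and those of Nfkbib 4.83 and 3.97. Nfkbia was 1.83-fold lower in CypD-/- LPS than in WT LPS. Hif1a, the oxygen-sensitive transcription factor, rose in both genotypes, with folds of 5.76 in WT and 2.92 in CypD-/- liver, and was 1.81-fold lower in CypD-/- LPS. In the polyamine pathway, Odc1, which makes putrescine and is degraded without ubiquitin, rose 2.15-fold in WT. Oaz1, the antizyme that delivers it to the proteasome, fell 3.10-fold in WT and was 1.83-fold higher in CypD-/- LPS than in WT LPS, which puts CypD-/- LPS at 0.589 of WT control. Azin1, the antizyme inhibitor, fell in both, 2.96-fold in WT and 3.06-fold in the CypD-/- comparison. Nfkbie and Trp53 were not listed. For Nfkbia, Hif1a and Oaz1, the WT comparison and that between the LPS libraries both use the WT LPS library.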
